A study of Mus musculus with 6 samples.

Results

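Gfi1, Gfi1b, Satb1 and Myb encode 4 nuclear regulators of blood cell development, and their levels were followed in wild-type and E2A-deficient thymocytes. They are 4 of 18193 genes that the array annotation names for a probe set of their own. All their probe sets were taken, which gave 10 of 45037: 1 for Gfi1, 1 for Gfi1b, 5 for Satb1 and 3 for Myb. No probe set listed any of the 4 together with another gene (0 probe sets). The genes were chosen by their known difference in log2 intensity between the genotypes, so their levels, differences and calls are a description here and support nothing.

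The series held 6 Affymetrix mouse expression arrays of sorted DN2 cells from fetal thymus, 3 from wild-type and 3 from E2A-deficient mice, all on the FVB background. DN2 cells, which lack CD4 and CD8, are thymocyte progenitors on the point of T-lineage commitment. The Tcf3 gene makes the E2A proteins, transcription factors that bind DNA at short sites called E boxes. The labels give neither the fetal day nor the targeted allele, and they do not say whether E2A was missing only from blood cells, whether animals were pooled, or whether replicates came from separate animals. P-values therefore measure the spread between these samples, which may be technical.

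Gfi1 and its paralog Gfi1b are zinc-finger repressors that silence genes by bringing in the demethylase Kdm1a, the corepressor Rcor1 and histone deacetylases. Gfi1 acts in early T-cell progenitors and in granulocytes, and Gfi1b chiefly in red-cell and platelet precursors. Satb1 is a chromatin organiser that binds AT-rich DNA and is abundant in thymocytes. Myb is a DNA-binding activator that stem cells, and thymocytes at several steps, depend on.

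The promoters of Gfi1 and Gfi1b are shown because E proteins act through E boxes and the most upstream windows of these paralogs differed in the boxes they held. Each is the 250 bases before the most upstream annotated start of the gene, in RefSeq assembly GRCm38.p6, on the minus strand, written 5′ to 3′, with every E box (CANNTG) in capitals. The Gfi1 window lies at chr5:107725806-107726055 and the Gfi1b window at chr2:28621983-28622232.
Gfi1: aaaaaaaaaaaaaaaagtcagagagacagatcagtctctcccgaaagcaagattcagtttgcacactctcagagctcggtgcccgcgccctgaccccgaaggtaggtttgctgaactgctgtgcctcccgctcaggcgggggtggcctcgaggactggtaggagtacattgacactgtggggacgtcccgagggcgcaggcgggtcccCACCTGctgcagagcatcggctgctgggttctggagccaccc
Gfi1b: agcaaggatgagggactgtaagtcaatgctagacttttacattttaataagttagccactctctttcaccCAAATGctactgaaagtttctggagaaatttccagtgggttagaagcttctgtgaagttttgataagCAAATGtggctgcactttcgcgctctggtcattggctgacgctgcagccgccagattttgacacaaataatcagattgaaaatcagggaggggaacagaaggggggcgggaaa

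The Gfi1 window held 1 E box, CACCTG, which begins 42 bases before the start and reads CAGGTG on the other strand. Gfi1 has 2 annotated windows, which both held a CANNTG, while CAGGTG was in this one alone. Of all 32851 promoter windows cut to the same 250 bases, 17.2% held CAGGTG on either strand, 13.0% held CAGCTG and 66.2% held at least 1 CANNTG, a motif that includes both. The Gfi1b window held 2 boxes, both CAAATG, 180 and 113 bases before the start. The most upstream windows of Satb1 (chr17:51833291-51833540) and Myb (chr10:21160985-21161234) held no CANNTG, although 2 of the 5 annotated windows of Satb1 did. CAGCTG was in 1 Satb1 window and CAGGTG in 1. The core recognised by Gfi1 proteins, searched as AAATC on both strands, occurred 2 times in the Gfi1b window, 1 time in that of Myb and 0 times in those of Gfi1 and Satb1, against 32.7% of all windows with at least 1 match. The Myb core, searched as AACNG on both strands, occurred 2 times for Gfi1, 1 time each for Gfi1b and Satb1 and 0 times for Myb, against 74.2% of all windows. These are matches of letters, in 1 window per gene unless said otherwise, and no binding was measured.

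All arrays had a median intensity between 77.4 and 79.0, and the upper quartile of all intensities was 134. The number of arrays limits the precision. Tcf3 itself read 477, 421 and 414 in wild-type replicates 1 to 3 and 236, 229 and 281 in E2A-deficient replicates 1 to 3, a log2 difference of -0.81 (SE 0.0952, n = 3 per group, limma adjusted p = 0.00864). The log2 differences of the 2 further Tcf3 probe sets were -0.49 and -0.24, and the labels do not say whether any of them lies in the deleted part. The genes Il2ra, Kit and Cd44, which define the DN2 gate, did not pass the test, with log2 differences of 0.13 (SE 0.165), 0.26 (SE 0.105) and 0.04 (SE 0.0636). The DN2 markers Thy1, at 370.2 ± 53.9 against 146 ± 12.3 (SD, n = 3), and Notch1, at 2419 ± 265 against 885 ± 158, fell, and Gata3 rose. The wild-type arrays also differed in the X-linked Xist (3055, 4456 and 58.7) and the Y-linked Eif2s3y (204, 58.0 and 343), while the E2A-deficient arrays read 1901, 1247 and 2154 and 229.8, 339 and 208. Both genes lay above the upper quartile in wild-type replicate 1 and every E2A-deficient array, as a pool of males and females would give. Wild-type replicate 2 was low in Eif2s3y and wild-type replicate 3 in Xist. The part of this mix of sexes in the results was not tested.

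The log2 ratio of the 5′ to the 3′ beta-actin control probe set, a measure of how complete the labelled RNA was, was -3.26, -2.63 and -3.35 in wild-type replicates 1 to 3. It was -2.60, -2.65 and -2.74 in E2A-deficient replicates 1 to 3. Wild-type replicate 2 thus lay inside the E2A-deficient range and the other 2 wild-type arrays below it.

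All 10 probe sets of the 4 genes were lower on average in E2A-deficient cells, with log2 differences from -1.11 to -0.30 and a median of -0.50, against a median of 0.0039 over all probe sets. In 8 of the 10, all 3 E2A-deficient arrays lay below all 3 wild-type arrays, a pattern that 6.79% of all probe sets showed. By limma with Benjamini-Hochberg adjustment over all probe sets, 4 of the 10 passed the threshold of 0.05, all of them lower, against 0.580% of all probe sets called lower and 1.79% called in either direction. The 4 were the Gfi1 probe set, 2 of Satb1 and 1 of Myb. The count went to 2 without wild-type replicate 1 or 2 or without E2A-deficient replicate 1 or 3. With the beta-actin ratio in the limma fit 0 passed. In whole sorted populations fewer cells with a transcript and less of it per cell cannot be told apart.

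**Figure D1:**
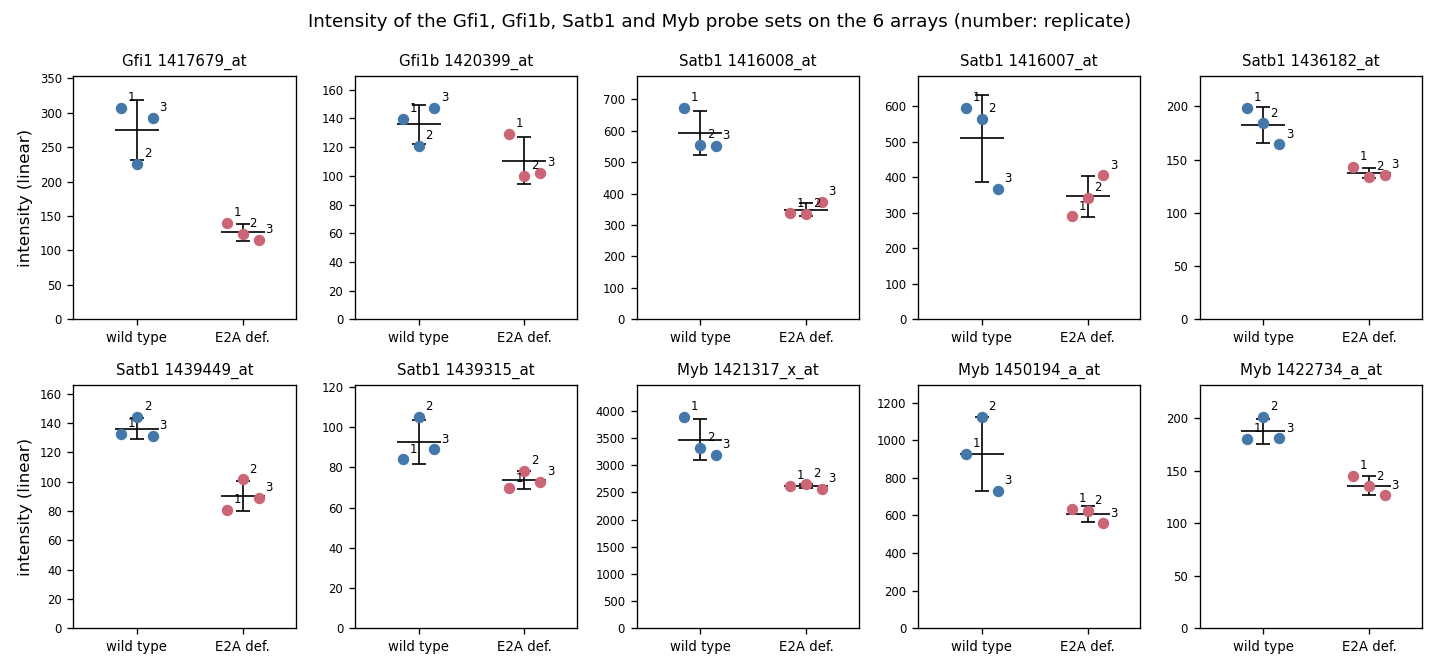
Linear intensity (y axis) of the 10 probe sets on each array, by genotype (x axis), with points numbered by replicate and bars giving mean ± SD (n = 3). The groups overlap only for the Gfi1b probe set and for Satb1 1416007_at.

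Gfi1 gave the largest difference of the 4 genes. Its probe set, 1417679_at, read 307, 226 and 292 in wild-type replicates 1 to 3 and 140.1, 124 and 115 in E2A-deficient replicates 1 to 3. The lowest wild-type array, replicate 2, still lay above the highest E2A-deficient array. The means were 275 ± 43.4 and 126 ± 12.5 (SD, n = 3), a log2 difference of -1.11 (SE 0.127), or 53.6% lower. In E2A-deficient cells 2 of the 3 arrays lay below the upper quartile of all intensities, and with a pseudocount of 32 in place of 1 the difference was -0.95. Set against the E2A-deficient arrays alone, wild-type replicate 2, the array with a matching beta-actin ratio and the lowest Eif2s3y reading, gave -0.84.

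Gfi1b, the paralog, was read by 1420399_at near the upper quartile of all intensities. It gave 139.8, 121 and 147 in wild-type replicates 1 to 3 and 129, 100.2 and 102 in E2A-deficient replicates 1 to 3. E2A-deficient replicate 1 lay above wild-type replicate 2, so the groups overlapped. The log2 difference was -0.30 (SE 0.118, n = 3 per group) and did not pass the test. With the beta-actin ratio in the fit it was -0.18, and against wild-type replicate 2 alone -0.14.

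The genes that define red-cell and platelet precursors, in which Gfi1b acts, were dim. Of 7 measured markers of that list, 5 lay below the upper quartile on all 6 arrays, and limma called 0 of the 7, of which 2 had an unadjusted p under 0.05. Klf1, a red-cell factor, lay above that quartile on E2A-deficient replicate 3 alone (141). The 1 marker above it on all arrays was the platelet integrin Itga2b, which progenitors also carry, at 366 ± 49.0 against 510 ± 115 (SD, n = 3; log2 difference 0.46, SE 0.171). All 7 were higher on average in E2A-deficient cells (median log2 difference 0.15, against 0.015 over all genes). The 8 thymic stroma markers were likewise all higher on average (median 0.04). Among the 7 was Gata1, at 105 ± 3.60 against 123 ± 7.51 (SD, n = 3; log2 difference 0.22, SE 0.0659), with every E2A-deficient array the higher. The summed intensity of the list was 822 to 909 in wild-type and 941 to 1177 in E2A-deficient arrays. Its part in the Gfi1b values was not tested.

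Satb1 was covered by 5 probe sets, all lower on average in E2A-deficient cells. The brightest, 1416008_at, read 673, 554 and 553 in wild-type replicates 1 to 3 and 337, 336 and 374 in E2A-deficient replicates 1 to 3. The groups were well apart, with a mean of 593 ± 69.1 against 349 ± 21.3 (SD, n = 3) and a log2 difference of -0.76 (SE 0.0922). A neighbouring probe set named from the same transcript sequence, 1416007_at, read 596, 564 and 368 against 291, 343 and 405. Here wild-type replicate 3 fell below E2A-deficient replicate 3, the groups overlapped, and the log2 difference of -0.54 carried an SE of 0.197. Without wild-type replicate 3 it was -0.76.

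The other 3 Satb1 probe sets were dimmer, and in each of them the groups were apart. Probe set 1436182_at read 199, 184 and 164 against 143, 134 and 135 (log2 difference -0.40, SE 0.0789). Probe set 1439449_at read 133, 144 and 131 against 81.0, 102 and 88.9 (-0.59, SE 0.0900), and it was the other Satb1 probe set to pass, a call that ended in 5 of the 6 fits that left out 1 array (all but that without E2A-deficient replicate 2; differences from -0.67 to -0.51 over the 6). The dimmest, 1439315_at, read 84.0, 105 and 88.9 against 69.5, 78.2 and 72.9 (-0.32, SE 0.0932). Averaged over its 5 probe sets, Satb1 differed by -0.52.

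Within a genotype the Satb1 probe sets did not rank the arrays alike. Wild-type replicate 1 lay above its group mean by 0.19, 0.26 and 0.13 on the log2 scale for 1416008_at, 1416007_at and 1436182_at, and deviated from it by -0.03 and -0.13 for 1439449_at and 1439315_at. E2A-deficient replicate 2 was the highest of its group for the last 2 (0.17 and 0.09) and not for the others. The widest spread was that of 1416007_at in wild-type cells, from -0.44 to 0.26. The order of arrays within a genotype thus varied between probe sets.

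Markers of CD4 and CD8 thymocytes, in which Satb1 is abundant, were dim in both genotypes. All 6 measured markers of that list lay below the upper quartile on all 6 arrays, among them Cd4 (85.3 ± 5.38 against 82.3 ± 2.75), Cd8a (86.6 ± 1.10 against 90.2 ± 7.39) and Cd8b1 (68.9 ± 2.52 against 66.6 ± 4.77; all SD, n = 3). Their summed intensity was 493 to 545 in wild-type and 473 to 490.1 in E2A-deficient arrays, which did not overlap. Cd5, a surface receptor that increases with T-cell development, fell from 119 ± 17.5 to 72.1 ± 2.89 (limma adjusted p = 0.0171). Ccr7, a chemokine receptor of later thymocytes, read 57.6, 66.1 and 71.1 against 89.2, 80.1 and 97.0, with every E2A-deficient array the higher (log2 difference 0.45, SE 0.101), and did not pass.

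Myb was covered by 3 probe sets, each apart between the genotypes. The brightest, 1421317_x_at, read 3889.7, 3323 and 3189 in wild-type replicates 1 to 3 and 2624, 2655 and 2568 in E2A-deficient replicates 1 to 3. The E2A-deficient arrays lay close together and below every wild-type array, with a log2 difference of -0.40 (SE 0.0813), or 24.3% lower. It did not pass over all probe sets, passed when 1 probe set per gene was tested over 18193 genes, and was -0.57 and passed after quantile normalization.

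The other 2 Myb probe sets were also lower in every E2A-deficient array than in any wild-type array. Probe set 1450194_a_at read 926, 1124 and 731 against 637, 626 and 558 (log2 difference -0.59, SE 0.148), with wild-type replicate 3 lowest of its group as it was for Satb1 1416007_at. Probe set 1422734_a_at read 180.0, 201 and 181 against 145, 135 and 127 (-0.47, SE 0.0743) and was the Myb probe set that passed. That call ended in each of the 6 fits that left out 1 array (differences from -0.51 to -0.41) and with the replicate block or with an intensity trend and robust variances in the limma fit. The suffix of 1421317_x_at marks probes that resemble other transcripts and that of the other 2 marks probes shared by several transcripts of the gene, so no Myb probe set was free of such a mark.

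**Figure D2:**
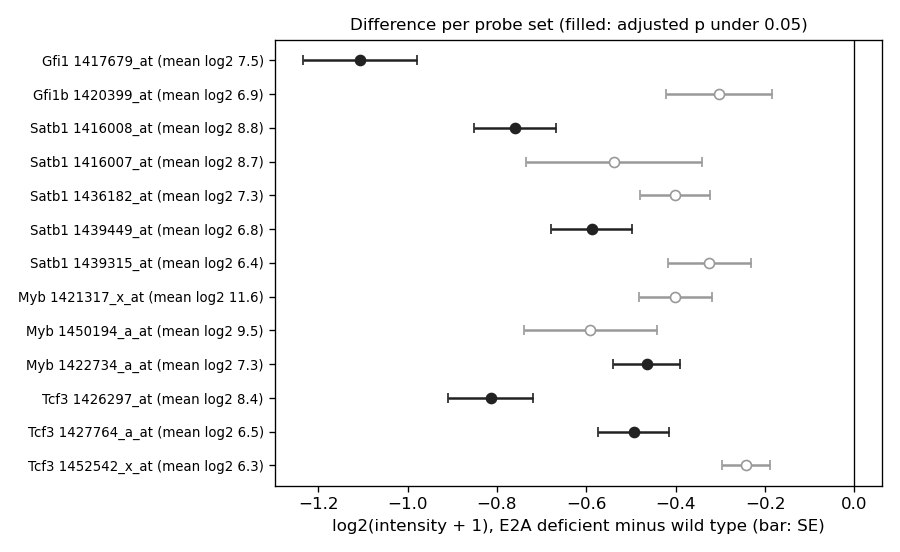
Log2 difference, E2A deficient minus wild type (x axis, with SE), of each Gfi1, Gfi1b, Satb1, Myb and Tcf3 probe set, with filled points for adjusted p under 0.05. All points lie below 0, from -1.11 for Gfi1 to -0.24 for 1 Tcf3 probe set.

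The beta-actin ratio moved with genotype, and its part in these differences was not tested beyond the values that follow. With that ratio in the fit the log2 differences of the brightest probe sets were -0.90 for Gfi1, -0.68 for Satb1 and -0.37 for Myb, each nearer to 0 than without it. The difference of Gfi1b was also smaller, while those of the other 4 Satb1 and the other 2 Myb probe sets were larger, so 6 of the 10 grew and 4 shrank. Among the 6, Myb 1450194_a_at went from -0.59 to -0.89, Myb 1422734_a_at from -0.47 to -0.58 and Satb1 1439315_at from -0.32 to -0.48. Wild-type replicate 2, whose ratio of -2.63 lay inside the E2A-deficient range, read 226 for Gfi1, 554 for Satb1 and 3323 for Myb, each above all 3 E2A-deficient arrays. Set against those arrays, it gave log2 differences of -0.84, -0.67 and -0.35. Again 6 of the 10 differences were larger than with all arrays and 4 smaller. The limma fit with this lone wild-type array assumes that wild-type arrays vary like the E2A-deficient ones. Wild-type replicate 2 also read lower than the E2A-deficient arrays for the Y-linked Eif2s3y (58.0 against 208 to 339). It read higher for Xist (4456 against 1247 to 2154), and the part of sex in these values was not tested.

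**Figure D3:**
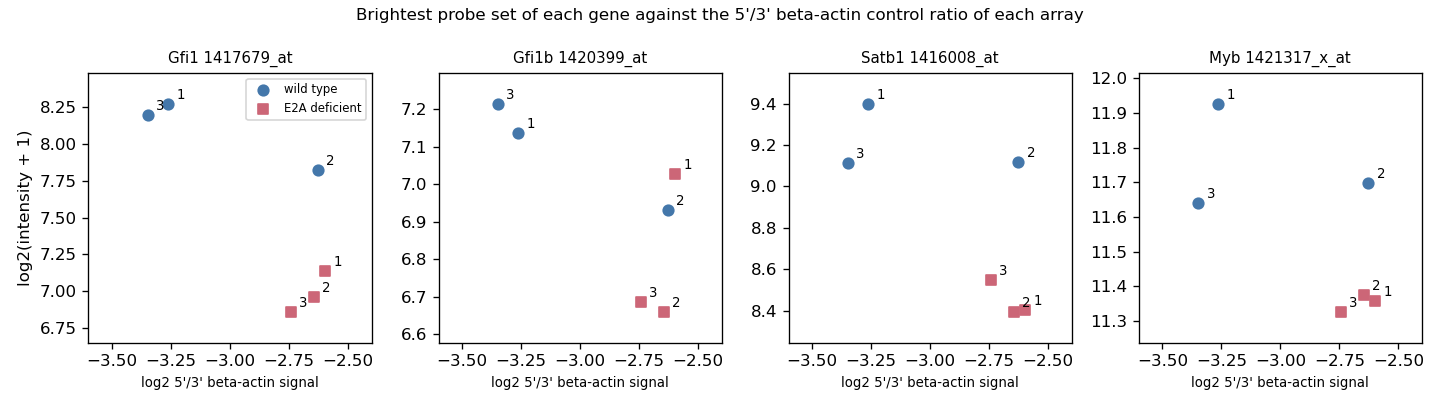
Log2 intensity of the brightest probe set of each gene (y axis) against the log2 5′ to 3′ beta-actin ratio of the array (x axis), for 3 wild-type (circles) and 3 E2A-deficient (squares) arrays numbered by replicate. Wild-type replicate 2, at -2.63, lies inside the range of the E2A-deficient ratios and stays above them for Gfi1, Satb1 and Myb but not for Gfi1b.

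Partners and targets of the 4 regulators were taken from 6 lists, which named 74 genes, of which 69 were measured by a probe set of that gene alone. Among the 69, limma called 8 higher and 1 lower and left 60 uncalled, a share called of 13.0%, against 3.46% of all 18193 genes called, 2.40% higher and 1.06% lower. The median log2 difference was 0.027 over these genes and 0.015 over all genes. Over all genes 437 were called higher and 193 lower, a split that went to 362 and 257 after quantile normalization. The share is a description of lists whose members were in part known to change. With the beta-actin ratio in the fit 3 of the 69 genes passed, and against wild-type replicate 2 alone 1 did.

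Of the cofactors of Gfi1, 9 lay above the upper quartile of all intensities on all 6 arrays. Of 13 measured, 12 did not pass, 1 rose and 0 fell (median log2 difference 0.07). The 1 was the deacetylase Hdac1, which read 443, 432 and 395 in wild-type replicates 1 to 3 and 580.2, 553 and 654 in E2A-deficient replicates 1 to 3. These groups were apart, with a log2 difference of 0.49 (SE 0.0817, limma adjusted p = 0.0219). Leaving out wild-type replicate 2 or 3, or E2A-deficient replicate 1 or 3, ended the call for Hdac1, with differences between 0.42 and 0.51. The replicate block or the beta-actin ratio in the limma fit ended that call too. Kdm1a, the demethylase that Gfi1 proteins bring to DNA, was at 1292 ± 203 against 1367 ± 69.2 (SD, n = 3; 0.09, SE 0.114), and Rcor1 at 460.3 ± 39.8 against 542 ± 35.7 (0.24, SE 0.0834), and neither passed. The other 2 probe sets of Rcor1 went the other way, at -0.17 and -0.08, and did not pass.

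Of 15 measured genes known as Gfi1 targets, 13 did not pass, 2 rose and 0 fell (median log2 difference -0.03, 9 of 15 below 0). Of the 15, 7 lay below the upper quartile of all intensities on all 6 arrays. Id2, which encodes an antagonist of E proteins, read 149, 178 and 159 against 388, 436 and 502, so all E2A-deficient arrays were the higher ones (log2 difference 1.44, SE 0.108, limma adjusted p = 9.71e-04). The other 2 probe sets of Id2 gave 0.06 and 0.15 and did not pass. Meis1, a homeobox gene of stem and progenitor cells, read 137, 124 and 141 against 207, 201 and 256 (0.71, SE 0.104, limma adjusted p = 0.0137), and its call ended when wild-type replicate 2 was left out (0.66). Its other 2 probe sets, at 0.13 and 0.57, did not pass. Il7r, the receptor chain that Gfi1 restrains in T cells, was at 536 ± 104 against 414 ± 89.4 (SD, n = 3) and Id1 at 105 ± 5.91 against 84.6 ± 9.84, and neither passed.

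The cofactors of Satb1 gave 9 measured genes, where 8 did not pass, 0 fell and Hdac1 was the 1 that rose (median log2 difference 0.10). Of 16 genes known as Satb1 targets, 14 did not pass, 2 rose and 0 fell (median 0.02). Ikzf2, which encodes the Ikaros family factor Helios, read 641, 584 and 735 in wild-type replicates 1 to 3 and 1270, 1473 and 1309.9 in E2A-deficient replicates 1 to 3. Its log2 difference was 1.05 (SE 0.0995, limma adjusted p = 0.00226), and of its other 2 probe sets, both higher, 1 passed. The cytokine gene Il4 went from 69.3, 64.8 and 68.4, near the floor, to 173, 124 and 142 (1.09, SE 0.114, limma adjusted p = 0.00318). The recombinase genes Rag1, at 162 ± 45.3 against 99.8 ± 15.5 (SD, n = 3; -0.66, SE 0.200), and Rag2, at 99.95 ± 20.8 against 79.8 ± 2.74 (-0.30, SE 0.135), did not pass.

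The family, cofactors and turnover factors of Myb gave 10 measured genes, where 9 did not pass, 1 fell and 0 rose (median log2 difference 0.00). Kmt2a, the histone methyltransferase that Myb binds together with menin, read 239, 246 and 245 against 198, 188 and 184 (-0.36, SE 0.0562, limma adjusted p = 0.0177). Leaving out wild-type replicate 2 or 3, or E2A-deficient replicate 2 or 3, ended that call, with differences between -0.35 and -0.33, and so did averaging its probe sets (-0.31). The call for Kmt2a also ended with the replicate block, the beta-actin ratio, or an intensity trend and robust variances in the limma fit. The paralogs Mybl1 (62.1 ± 1.60 against 59.5 ± 0.910) and Mybl2 (178 ± 8.61 against 170.0 ± 7.20; both SD, n = 3) did not pass.

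Of 11 measured genes known as Myb targets, 8 did not pass, 3 rose and 0 fell (median log2 difference 0.19). Gata3, a factor that T cells need from their earliest stages, read 280.4, 274 and 219.9 against 731, 594 and 802 (log2 difference 1.45, SE 0.135, limma adjusted p = 0.00215). Cd34, a sialomucin of progenitors, read 148, 192 and 193 against 401, 329 and 387 (log2 difference 1.07, SE 0.124, limma adjusted p = 0.00502). Lef1, a partner of beta-catenin, read 89.5, 91.1 and 94.5 against 159, 152 and 172 (0.80, SE 0.0660, limma adjusted p = 0.00124), and its other probe set passed too. In all 3 genes every E2A-deficient array lay above every wild-type array, as in 13.2% of all genes. Kit (0.26, SE 0.105), Myc (-0.32, SE 0.154) and Bcl2 (-0.17, SE 0.230) did not pass.

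**Figure D4:**
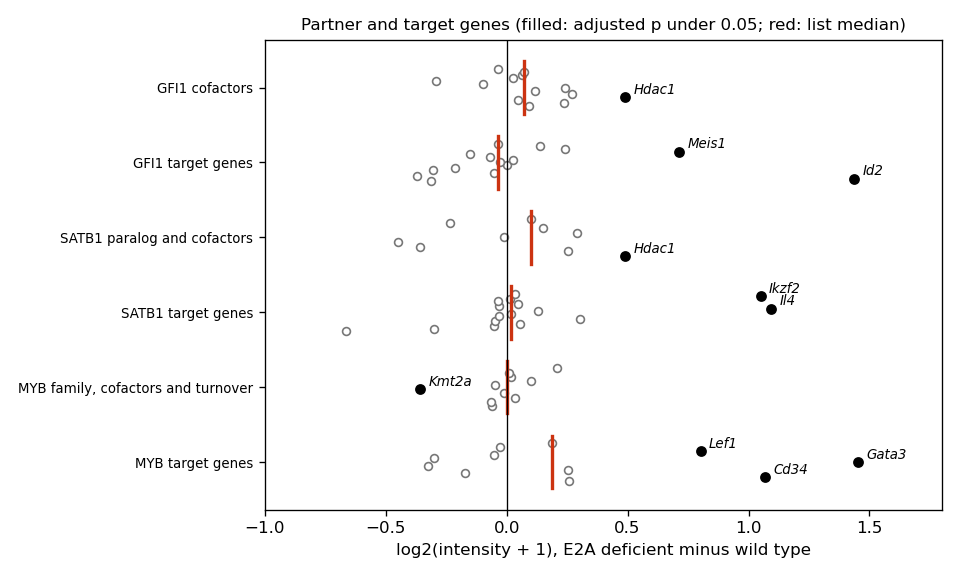
Log2 difference, E2A deficient minus wild type (x axis), of each measured partner or target gene by list (y axis), with filled, named points for limma adjusted p under 0.05 and a red line at the list median. Kmt2a, at -0.36, is the only filled point below 0, and the medians lie between -0.03 and 0.19.

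Markers of other cells that a sort could hold were low. None of the 7 measured B-lineage markers passed by limma (0 genes), and 1 had an unadjusted p under 0.05. Their summed intensity was 602 to 624 in wild-type and 561 to 581 in E2A-deficient arrays, which did not overlap. Of 9 myeloid markers, a lineage in which Gfi1 and Myb are also active, 8 lay below the upper quartile on all arrays and Lyz2 fell from 107 ± 3.01 to 75.6 ± 6.67 (SD, n = 3; limma adjusted p = 0.0151). The exception in brightness was Mpo, which early progenitors also make, at 907 ± 108 against 1036 ± 145. The summed myeloid intensity was 1416 to 1678 in wild-type and 1545 to 1783 in E2A-deficient arrays. Among 5 measured markers of NK and innate lymphoid cells the regulator Zbtb16 rose, from 276 ± 52.7 to 726 ± 49.4 (SD, n = 3; limma adjusted p = 0.00213), while the other 4 lay below the upper quartile on all arrays. The summed intensity of that list was 507 to 617 in wild-type and 938 to 1033 in E2A-deficient arrays. Of 8 thymic stroma markers 7 lay below the upper quartile on all arrays and 0 passed by limma, with 1 at an unadjusted p under 0.05 (Krt8, a keratin of epithelial cells). All 8 were higher on average in E2A-deficient cells (median log2 difference 0.04). Their summed intensity was 581 to 639 in wild-type and 651 to 692 in E2A-deficient arrays, which did not overlap. The part of such cells in the Gfi1, Satb1 and Myb values was not tested.

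Genes with the most similar profile over the 6 arrays were sought by the root mean square difference of log2 values, each centred on its own mean, with 1 probe set per gene. For Gfi1 these were Tspan2 (0.126), Capn5 (0.131) and Ripor1 (0.134), against a median of 0.586 over all genes. Like Gfi1, Tspan2 had its lowest wild-type reading in replicate 2, with 360.2, 210.03 and 295 in wild-type replicates 1 to 3 and 152, 140.2 and 138 in E2A-deficient ones. For Satb1 they were Tapt1 (0.0366), Tcf3 (0.0584) and Svil (0.0672), against a median of 0.408. By this measure Tcf3, the gene that was targeted, came second for the brightest Satb1 probe set, the only one compared. For Myb they were Slc23a4 (0.0316), Ric3 (0.0377) and Pa2g4 (0.0425), against a median of 0.239, and the first 2 of these were read near the floor, at 90.4 ± 8.52 and 89.7 ± 7.84 (SD, n = 3) in wild-type cells. A small value here says only that 2 profiles had a similar shape and size over 6 arrays. The genotype difference by which the genes were chosen is part of each profile, so genes with a like difference rank close.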

How the data were processed

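The authors deposited 1 linear intensity per probe set and array, from 41.4 to 18824 beside the controls. RMA is the only tool in the submitters' processing notes, with no version, and how its values came to be linear is not given in the sources used. Per the labels, cRNA was amplified by repeated in vitro transcription, which favours 3′ ends. The 64 control probe sets were left out of 45101. Of the rest, 34945 named 1 gene, 932 several and 9160 none. The design had foreseen log2 values or, for linear ones, log2(intensity + 1), which was fitted per probe set with limma 3.58.1 (R 4.3.3), as a two-sided test at a Benjamini-Hochberg adjusted p of 0.05, and again per gene on the brightest of its probe sets. Named were all probe sets of Gfi1, Gfi1b, Satb1 and Myb, Tcf3, called partner and target genes, cell type markers and the 3 nearest profiles per gene. Other list members were named after their values were seen. The members and lists were chosen with earlier results of these data known. In 10 simulations of this comparison, 200 of 45037 probe sets were changed each time. The fit called 52.7% of log2 changes of 0.5, 89.0% of 1 and 98.5% of 2, and 5.00% of its calls were false. The simulated noise was normal and independent, with no difference in sex or RNA between arrays, so these shares need not hold for the real arrays. Python 3.11.15 and matplotlib 3.10.9 made the figures. Promoter windows were matched by symbol and credited to RefSeq.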

Additional observations from a re-analysis of the deposited data

How the results depend on the processing

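None of the differences of the 10 probe sets changed sign under any alternative that was run (0 reversals). Chosen after seeing the data were the test over genes and the fit with 1 lone wild-type array of matching beta-actin ratio but unlike sex-linked readings. With the beta-actin covariate, 0 of the 10 probe sets and 3 of the 69 partner and target genes passed, and the differences were -0.90 for Gfi1, -0.68 for Satb1 and -0.75 for Tcf3, while 6 of the 10 probe sets had larger differences than without it. With the lone wild-type array the counts were 0 and 1 and the differences -0.84, -0.67 and -0.76. Leaving out each array in turn gave 2 to 4 called probe sets and 7 to 9 called partner and target genes. The brightest Myb probe set, not called in the test over all probe sets, passed after quantile normalization (-0.57), over genes (-0.40) and as the mean of its probe sets (-0.49). Without shared probe sets Id2 was read by a probe set at 0.06 and Myb by none. Same-numbered arrays did not deviate together over all probe sets (correlations from -0.04 to 0.04). With so few arrays and no other pairings compared, these values cannot tell whether the labels' numbers pair anything. With the replicate block 3 of the 10 probe sets passed. Over all 45037 probe sets 804 were called, 471 with the replicate block, 358 to 563 without 1 array, 114 with the covariate and 97 with the lone wild-type array. Over genes 630 were called, 123 with the covariate, 83 with the lone wild-type array and 320 to 533 without 1 array. For the changes after leaving out arrays and with the covariate the cause was not tested. The floor of the intensities limits what dim probe sets can show.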
